A study of Caenorhabditis elegans with 2 samples.

Results

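The X chromosome carried 5484 of the 30000 regions listed for SNPC-4 in pooled L3 larvae of Caenorhabditis elegans, once regions close to tRNA and microRNA genes were set aside. The deposited list mixes peaks with background, so each region was placed by its summit, and 209 of the 5693 X regions were left out because the summit lay within 500 bp of the 5′ end of a tRNA or microRNA gene. Of the 5484, 396 (7.22%) were also in the thresholded list, against 8.56% of all 29437 nuclear regions chosen in the same way. These 396 are called the thresholded X regions below, and a region's number is its place by signal on X, with 1 the strongest. All coordinates are on ce11, which is the WBcel235 assembly.

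The assay was chromatin immunoprecipitation with sequencing (ChIP-seq). There was 1 group of whole L3 larvae in 2 biological replicates, strain OP179, genotype unc-119(ed3) III; wgIs179, where wgIs179 is the transgene that makes the tagged protein eGFP::SNPC-4. The animals were of both sexes, pooled, and the share of males was not stated; XX and X0 animals carry different numbers of X chromosomes. There was no untagged or second condition, and the values of the control named in the headers were not analysed here, so X regions are described among themselves, between the replicates and against the autosomes.

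SNPC-4 is the DNA-binding subunit of the small nuclear RNA activating protein complex (SNAPc). SNAPc binds a short element a fixed distance upstream of small nuclear RNA (snRNA) genes and starts their transcription by RNA polymerase II or III. The X chromosome of this species is silenced in much of the germline and holds few genes that are needed there. In XX animals the dosage compensation complex is recruited to X at sites that carry a short recruitment motif, and it lowers X transcription from both copies.

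The upstream sequences of 3 noncoding RNA genes of the M163 locus are shown first. The lines run 5′ to 3′ on the gene's strand, from 90 bp upstream of the annotated 5′ end to base 10 of the gene. They are printed because the 3 genes lie side by side at the strongest cluster on X; capitals in M163.13 and M163.12 mark the longest run that both hold, 25 bases beginning 68 bp upstream of each gene (position -68). Sequences are from the RefSeq WBcel235 genome.
M163.13, chrX:14476777-14476876, plus strand: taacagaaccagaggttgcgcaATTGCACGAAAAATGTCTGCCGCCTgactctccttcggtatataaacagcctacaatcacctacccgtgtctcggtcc
M163.12, chrX:14477455-14477554, plus strand: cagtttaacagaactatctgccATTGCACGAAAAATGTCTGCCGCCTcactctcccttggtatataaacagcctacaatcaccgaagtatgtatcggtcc
M163.14, chrX:14478374-14478473, plus strand: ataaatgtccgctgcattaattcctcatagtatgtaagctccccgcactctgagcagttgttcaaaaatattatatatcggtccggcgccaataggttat

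The next lines show an upstream element. It was fitted as a motif of 22 bases to 48 autosomal spliced leader and snRNA genes with a thresholded peak, and no X sequence entered the fit. Capitals mark its match. The first 3 lines are genes, printed as above; the others are regions with no annotated 5′ end within 500 bp, on the strand of the match. X regions 29, 46, 67 and 76 hold the 8-base word CGGCCGAC, read as its reverse complement GTCGGCCG on the strand printed, and X regions 19 and 25 do not; C02C6.13 holds it as well.
K08B5.8, chrX:16564640-16564739, plus strand: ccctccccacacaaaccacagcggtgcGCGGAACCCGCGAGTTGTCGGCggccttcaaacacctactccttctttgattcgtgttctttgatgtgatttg
T21F2.3, chrX:16722104-16722203, minus strand: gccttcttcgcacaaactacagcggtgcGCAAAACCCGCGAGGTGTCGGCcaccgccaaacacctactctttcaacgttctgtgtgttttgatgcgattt
C02C6.13, chrX:15552478-15552577, minus strand: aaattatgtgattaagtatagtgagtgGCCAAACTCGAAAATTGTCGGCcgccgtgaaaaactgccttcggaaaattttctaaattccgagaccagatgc
X region 19, chrX:15345517-15345576, plus strand: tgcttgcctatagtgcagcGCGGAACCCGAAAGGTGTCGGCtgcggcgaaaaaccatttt
X region 25, chrX:16566518-16566577, plus strand: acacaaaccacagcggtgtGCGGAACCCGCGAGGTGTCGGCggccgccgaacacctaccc
X region 29, chrX:2892060-2892119, minus strand: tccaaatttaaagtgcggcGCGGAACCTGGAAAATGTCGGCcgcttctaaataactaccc
X region 46, chrX:2843626-2843685, plus strand: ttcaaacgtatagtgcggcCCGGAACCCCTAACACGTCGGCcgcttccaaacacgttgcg
X region 67, chrX:16289789-16289848, plus strand: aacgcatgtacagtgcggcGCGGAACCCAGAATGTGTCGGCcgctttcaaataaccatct
X region 76, chrX:2960880-2960939, minus strand: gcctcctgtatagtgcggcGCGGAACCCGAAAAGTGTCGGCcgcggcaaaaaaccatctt

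The third set shows the word GCGCAGGG, known as the core of the recruitment motif of the dosage compensation complex, which is in capitals on the strand that holds it. These are the 10 strongest thresholded X regions with the word.
X region 3, chrX:16682146-16682205, minus strand: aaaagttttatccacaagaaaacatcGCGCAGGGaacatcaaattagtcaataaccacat
X region 4, chrX:4209240-4209299, minus strand: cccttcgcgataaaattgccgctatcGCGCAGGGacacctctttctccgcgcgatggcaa
X region 7, chrX:806648-806707, plus strand: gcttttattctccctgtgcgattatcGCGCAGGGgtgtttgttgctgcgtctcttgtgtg
X region 8, chrX:2997097-2997156, minus strand: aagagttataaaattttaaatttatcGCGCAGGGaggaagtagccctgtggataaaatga
X region 9, chrX:11094200-11094259, minus strand: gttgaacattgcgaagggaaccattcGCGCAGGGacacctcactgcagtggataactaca
X region 10, chrX:1345030-1345089, plus strand: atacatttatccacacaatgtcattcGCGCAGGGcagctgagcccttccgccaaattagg
X region 12, chrX:14525874-14525933, minus strand: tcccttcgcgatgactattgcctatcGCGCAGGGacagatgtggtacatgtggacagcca
X region 15, chrX:12363013-12363072, minus strand: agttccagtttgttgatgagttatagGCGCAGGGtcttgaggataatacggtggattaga
X region 18, chrX:5429564-5429623, plus strand: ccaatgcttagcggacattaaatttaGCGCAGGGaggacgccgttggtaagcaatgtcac
X region 32, chrX:6296550-6296609, plus strand: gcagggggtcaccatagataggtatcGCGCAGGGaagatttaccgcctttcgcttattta

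The last set shows AGACGCAG, a word common at SNPC-4 peaks of all chromosomes, in capitals at the 4 strongest X regions that had both the word and a protein-coding start: F17E5.2 (X region 26), asb-2 (X region 35), C27C12.4 (X region 40) and sec-3 (X region 42).
X region 26, chrX:12393936-12393995, minus strand: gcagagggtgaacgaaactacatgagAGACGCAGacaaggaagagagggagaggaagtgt
X region 35, chrX:4469442-4469501, minus strand: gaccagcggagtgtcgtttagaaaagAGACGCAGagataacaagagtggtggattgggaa
X region 40, chrX:14853969-14854028, plus strand: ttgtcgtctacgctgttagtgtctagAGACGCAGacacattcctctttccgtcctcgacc
X region 42, chrX:3099957-3100016, minus strand: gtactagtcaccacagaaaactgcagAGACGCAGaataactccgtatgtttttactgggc

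The strongest X regions lay at small RNA genes of the M163 locus. The snRNA gene M163.13 (WBGene00045133, X, 14476867 to 14476946) had the highest signal on X, 497 in the arbitrary unit of the pooled list, and ranked 46 among all regions. It ranked 44 in the list of replicate 1 and 47 in that of replicate 2. The summit was 36 bp upstream of the gene (position -36). The snoRNA gene M163.14 (WBGene00045158, X, 14478464 to 14478527) came next, with a signal of 464, rank 50, and ranks 48 and 50 in the replicates. Its summit was at -65. The next X region had a signal of 225, and both genes held nearly the same rank in both replicates.

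M163.12, an annotated noncoding RNA gene with no further class, also had a thresholded region, with a signal of 130 and rank 201 (ranks 204 and 214 in the replicates). Its summit was at 11 bp inside the gene. Over the 100 bases printed above, 77 positions of M163.13 and M163.12 were identical without a gap (77%). The 25-base run they share occurred 2 times on X, at these genes, and 0 times on the autosomes. The protein-coding gene gfi-3 lay at the end of the cluster with a signal of 138 (rank 182, summit at -152). The 4 thresholded summits spanned 3589 bp. The cluster held 5 regions in all. The other 1 was below the threshold and was left out because its summit lay near a tRNA or microRNA gene. The nearest tRNA 5′ end was 550 bp from the summit at M163.14 and 1471 bp from that at gfi-3.

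None of the regions at these 3 genes had a match to the upstream element: a match needed 13.9 bits, the score that 1% of all 200-bp tiles of the nuclear chromosomes reached. The best site upstream of M163.13 on the gene's strand scored -1.35. It began at -63, the median begin of the element in the fitted genes, and so inside the run shared with M163.12.

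Other small RNA genes of X were mostly without a thresholded region. Of 33 snoRNA genes on X, whose RNAs guide modification of other RNAs, 13 had a region within 500 bp and 2 a thresholded one. The second was D2021.6 (signal 107, rank 286, ranks 251 and 431 in the replicates, summit at -16). The same summit was at -199 from the start of the protein-coding gene sdha-1. Of the 3 snRNA genes only M163.13 had any region. On the autosomes, 85 of the 190 regions assigned to snoRNA genes were thresholded (44.7%), against 2 of 16 on X (12.5%). X held no spliced leader RNA, RNase P, RNase MRP or Y RNA gene by this annotation. These class counts were not tested.

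The upstream element was present at 2 of the 33 snoRNA genes and at 1 other noncoding gene named here. T21F2.3 (WBGene00220078) scored 31.5 bits, with the match beginning at -62 and the summit also at -62. Its region missed the threshold, with a signal of 27.9 and rank 2818, and the replicates differed: rank 1405 in replicate 2 but 24041 in replicate 1. C02C6.13, a snoRNA gene inside lron-3, scored 24.0 bits with the match at -63, yet its strongest region ranked 20631. K08B5.8, a noncoding gene, scored 36.8 bits with the match at -63. It had a thresholded region with a signal of 104 (rank 304), the summit at -44, and ranks 418 and 235 in the replicates.

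**Figure D1:**
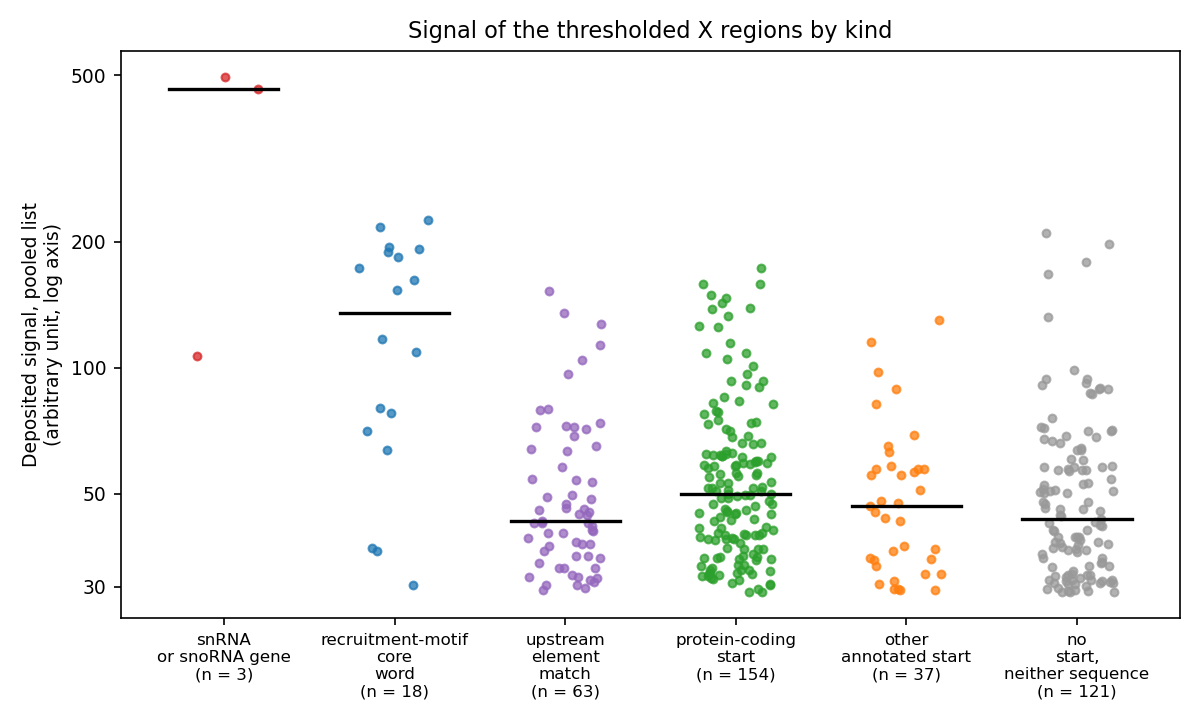
Deposited signal of the 396 thresholded X regions (log axis, arbitrary unit), each point 1 region, placed by the first kind that applies from left to right; bars are medians. The median was 135 for the 18 regions with the core word of the recruitment motif and 43.6 for the 121 regions with no annotated start and neither sequence.

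Below the M163 genes, most of the strongest X regions lay away from any annotated start, and many held GCGCAGGG. Of the 20 strongest X regions 14 had no 5′ end of any class within 500 bp, and 9 held the word within the 200 bp centred on the summit, on either strand. The strongest was X region 3 (X, 16682016 to 16682234) with a signal of 225 and rank 99, at ranks 116 and 87 in the replicates. X region 4 (X, 4209183 to 4209362) had a signal of 217 and rank 104, at ranks 91 and 116. X region 7 (X, 806576 to 806760) had a signal of 195 and rank 118, at ranks 110 and 118. All 3 were intergenic, and the ranks in the replicates differed little.

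The word was found at 18 of the 396 thresholded X regions (4.55%, 95% exact interval 2.72 to 7.09) and at 3 of 2125 thresholded autosomal regions (0.141%, 0.0291 to 0.412). The odds ratio was 33.7 (Fisher's exact test, two-sided, adjusted p = 1.12e-11 over the 11 comparisons made). The word was chosen as the core of a motif known from X, and the p-value does not allow for that choice. The shares on single autosomes ran from 0% to 0.248%. With a window of 300 bp in place of 200 bp the shares were 4.798% on X and 0.518% on the autosomes, so the ratio between them was smaller (adjusted p = 2.02e-08, Fisher's exact test). Neighbouring regions are not independent draws, so the spread between single autosomes is given for each of the 11 comparisons.

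GCGCAGGG was rare everywhere in the genome. It occurred in 0.0869% of the 200-bp tiles of X and in 0.0538% of autosomal tiles. X held 81 copies (4.57 per Mb) and the autosomes 233 (2.82 per Mb). Of the X copies, 21 (25.9%, interval 16.8 to 36.9) lay within 100 bp of a thresholded summit, against 3 autosomal copies (1.29%, 0.266 to 3.72). At X regions below the threshold the word was present in 0.157%.

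The 18 regions with the word had a median signal of 135 (range 30.3 to 225), and all thresholded X regions had a median of 47.3. All 18 had a summit of both replicate lists within 100 bp, and 15 were among the 2672 strongest regions of both. No start of any class lay within 500 bp for 16 of them. The remaining regions were X region 107 at R04E5.9 and X region 293 at jkk-1. By position 13 were intergenic, 3 intronic and 2 in coding exons, X region 15 in F19H6.6 and X region 18 in pks-1. They lay in 9 of 10 equal bins of the chromosome's length, with a median of 972765 bp between neighbours, and the closest pair was 61140 bp apart. The word's centre was a median of 34.5 bp from the summit.

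Bases beside the word were also shared. Over the 21 copies at thresholded X regions, C stood at position -1 from the word in 57.1% and T at position -2 in 61.9%. A followed the word in 71.4%. Each position was counted by itself. The word and its 24 variants with 1 letter changed were counted as well, a measure added after the values were seen. At least 1 of them was present in 13 of the 20 strongest X regions (65%) and in 18 of the 20 strongest with no annotated start (90%). Among the weaker thresholded X regions, grouped by order of signal, the share ran from 15% to 22%, with 16.7% in X regions 21 to 50. Only 14 of the 20 strongest X regions had no annotated start, so the no-start set reaches into X regions 21 to 50. The share was 10.4% among thresholded autosomal regions of every strength and position, and 2.59% among 200-bp tiles of X. The strongest autosomal regions, with or without a start, were not counted separately.

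**Figure D2:**
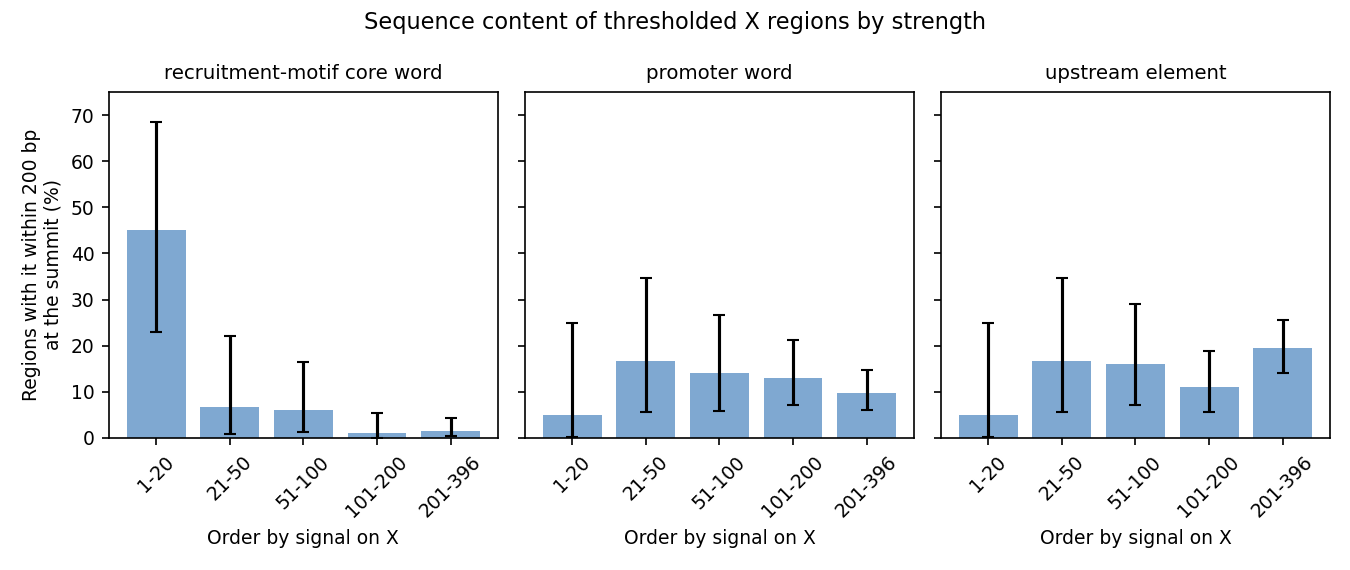
Share of thresholded X regions (%) with each sequence in the 200 bp at the summit, by order of signal on X; bars are shares, lines 95% exact binomial intervals. The core word of the recruitment motif falls from 45% of the 20 strongest to 1.53% of regions 201 to 396. AGACGCAG, drawn as promoter word, lies between 5% and 16.7%, and the upstream element between 5% and 19.4%. The drawn label is only a name. At protein-coding starts AGACGCAG was in 12.3% of thresholded regions on X and 13.6% on the autosomes, and elsewhere in 10.7% and 21.2%.

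The upstream element matched at 63 of the 396 thresholded X regions (15.9%, interval 12.5 to 19.9) and at 184 of 2125 autosomal ones (8.66%), with an odds ratio of 2.00 (Fisher's exact test, adjusted p = 6.32e-05). Single autosomes ran from 5.36% to 11.1%. The match lay at the summit: its centre was within 25 bp in 46 of the 63, and the median distance was 10 bp. Of the 63, 54 had no annotated start within 500 bp and 6 lay at a protein-coding start, among them asb-2 and hsp-3. Among the stronger 50% of the thresholded list the difference between X and the autosomes was 0.793 percentage points (adjusted p = 0.794, Fisher's exact test), against 7.25 over the whole list. It was 8.02 points in the list of replicate 2 and 3.48 in that of replicate 1.

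Most of these matches overlapped a shared 8-base word. The word CGGCCGAC, picked after the values were seen, was present at 40 thresholded X regions (10.1%) and 65 autosomal ones (3.06%). It overlaps the element: in 36 of the 40 X regions the element matched on the opposite strand at the same place, with 6 bases of the word inside the match. Leaving out every region with the word, on X and on the autosomes, the element matched in 27 of 356 X regions (7.58%) and 138 of 2060 autosomal ones (6.70%), with an adjusted p of 0.626 by Fisher's exact test. X was then inside the range of the single autosomes, 2.98% to 9.09%. This setting removes element matches by its construction, since the word is part of them.

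Around the word the X copies were alike at some positions and not at others. Over 53 copies at thresholded X regions, the commonest base at single positions beside the word was held by 41.5% to 94.3% of copies. The base before the word was G in 94.3% and the base after it A in 92.5%, while position 11, counted from the word's first base, was G in 41.5% and position 15 G in 49.1%. In 36 of the 40 regions the element match also covers the bases just after the word, positions 11 and 15 included. How alike the copies are there is therefore partly set by the match. The base before the word lies outside it. A median of 30% of the 200 bp at these summits was soft-masked as repeat in the genome file, against 15.2% over all thresholded X regions, and their median GC content was 54.2% against 47.5%. X held 402 copies of the word (22.7 per Mb), of which 13.2% (interval 10.03 to 16.9) lay within 100 bp of a thresholded summit. The autosomes held 1538 copies (18.6 per Mb), of which 5.07% did (4.03 to 6.29). Reads shared between similar copies were not examined.

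Of the 40 regions, 37 had no annotated start within 500 bp, and 22 lay in introns. All 40 had a summit in both replicate lists, and 21 were among the 2672 strongest of both. The strongest was X region 29 (X, 2892005 to 2892185), with a signal of 127 and ranks 211 pooled, 215 in replicate 1 and 227 in replicate 2. The strongest element matches without the word were stronger. X region 19 (X, 15345455 to 15345622) had a signal of 153 and rank 159, and X region 25 (X, 16566458 to 16566630) had a signal of 135 and rank 187. Both had no annotated start within 500 bp, and the centre of the match was 2 bp from the summit in each.

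Protein-coding starts made up the largest annotated class, with 162 assigned thresholded regions, but a smaller share than on any autosome. A protein-coding 5′ end lay within 500 bp of the summit in 163 of 396 thresholded X regions (41.2%, interval 36.3 to 46.2) and in 1191 of 2125 autosomal ones (56.0%), and single autosomes ran from 53.0% to 61.2%. The odds ratio was 0.549 (Fisher's exact test, adjusted p = 2.42e-07). Over all regions of the pooled list the shares were 18.7% on X and 24.4% on the autosomes (18.9% to 28.7%; adjusted p = 3.08e-19, Fisher's exact test). X is less dense in these genes, with 154 per Mb against 188 to 239 on the autosomes, and this gap was not separated from the shares.

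Regions at starts were also less often thresholded on X. Of X regions at a protein-coding start 163 of 1026 were thresholded (15.9%), and of autosomal ones 20.3% (16.4% to 26.7% on single autosomes; odds ratio 0.740, Fisher's exact test, adjusted p = 0.00139). Away from starts the shares were 5.23% and 5.16% (3.42% to 6.93% on single autosomes), an odds ratio of 1.01 (adjusted p = 0.85, Fisher's exact test), and the sign of this difference changed with the replicate, the window and the autosomes used. The share of all regions that were thresholded, 7.22% on X and 8.87% on the autosomes together (adjusted p = 0.000122, Fisher's exact test), was inside the spread of single autosomes, which ran from 5.96% on IV to 11.4%. Counted by gene, 180 of 2730 X protein-coding genes had a thresholded region within 500 bp (6.59%, interval 5.69 to 7.59), against 8.82% of all 19971 nuclear protein-coding genes. V was lower still, at 6.29%.

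**Figure D3:**
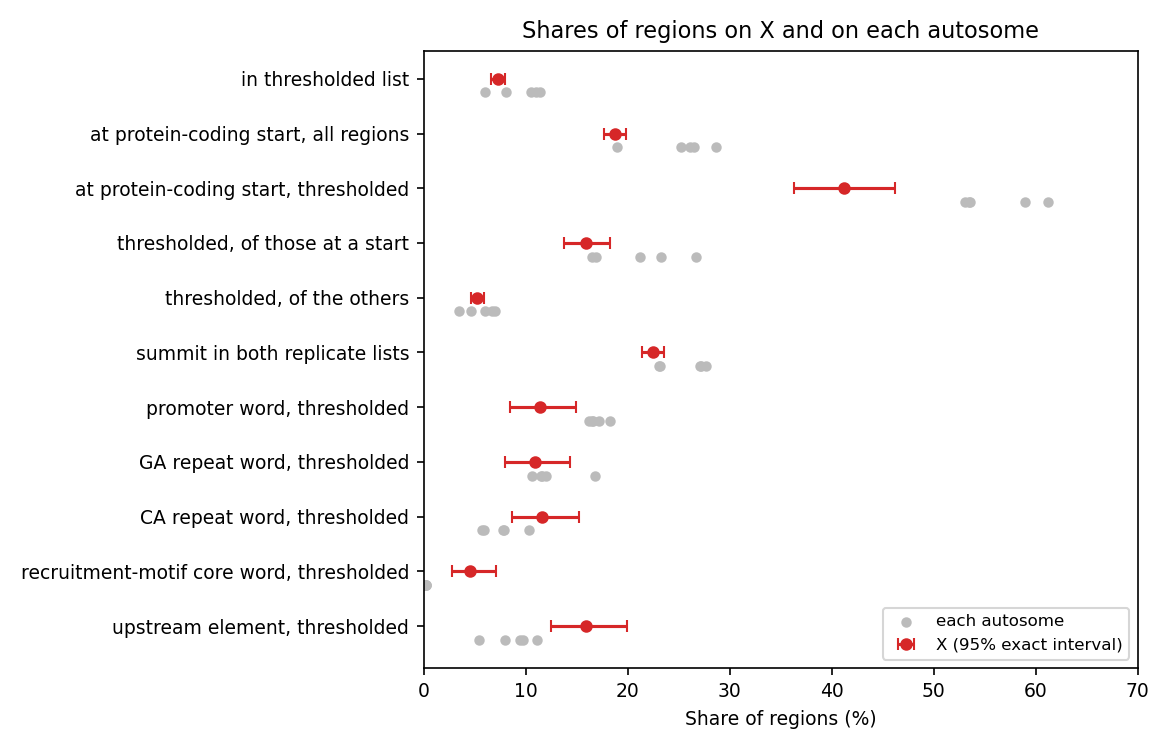
Shares of regions (%) for the 11 comparisons, on X (red, with 95% exact binomial intervals) and on each of the 5 autosomes (grey, drawn just below). X lies beyond every autosome in most of the 11, in some narrowly (18.7% against 18.9% to 28.7% for all regions at a protein-coding start). Among them are thresholded regions at a protein-coding start (41.2% against 53.0% to 61.2%) and the core word of the recruitment motif (4.55% against 0% to 0.248%). X is inside their range for the share in the thresholded list, the thresholded share away from starts and GAGAGAGA. The row drawn as promoter word is AGACGCAG, and that label is only a name.

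The strongest protein-coding starts belonged to genes of varied function. serp-1.1 (signal 173, rank 145, summit at -293) ranked 185 and 117 in the replicates; its name marks it as a relative of a stress-associated protein of the endoplasmic reticulum. wshc-2 (signal 159, rank 155, summit at -143) and pkhm-2 (signal 158, rank 156, summit at -166) followed. rpl-11.2, which encodes a large-subunit ribosomal protein, had a signal of 150 (rank 163, ranks 186 and 173 in the replicates, summit at -375). All 4 were among the 20 strongest X regions.

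Other starts further down, picked for their known roles after their values were seen and not the full order, included puf-9, a Pumilio-family RNA-binding protein (143), uggt-1, a folding sensor of glycoproteins (139), mans-3 (126), trap-2, a translocon-associated protein (125), asb-2, a subunit of ATP synthase (113), and ucr-2.2, a core protein of respiratory complex III (108). Each was in the first 300 regions of the pooled list.

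Summits sat upstream of starts. Among the 162 regions assigned to protein-coding genes the median position was -179.5 (quartiles -278 and -98.8), and 92.6% were upstream. The autosomal medians ran from -151 to -176, so X was slightly farther from the start; this was not tested.

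AGACGCAG was at 45 of 396 thresholded X regions (11.4%, interval 8.41 to 14.9) and 360 of 2125 autosomal ones (16.9%, 15.4 to 18.6), with single autosomes from 16.2% to 18.2% (odds ratio 0.629, Fisher's exact test, adjusted p = 0.00635). This word, like CACACACA and GAGAGAGA below, was chosen with earlier results of these data known, and the p-values do not allow for that choice. AGACGCAG itself is rarer on X, in 0.563% of 200-bp tiles against 1.16% on the autosomes. Of its 521 copies on X, 9.79% (7.38 to 12.7) lay within 100 bp of a thresholded summit, and of 5291 autosomal copies 7.60% (6.90 to 8.35). At protein-coding starts the shares with the word were 12.3% on X and 13.6% on the autosomes, and elsewhere 10.7% and 21.2%. Among the stronger 50% of the thresholded list the overall difference was -2.66 percentage points (adjusted p = 0.478, Fisher's exact test).

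CACACACA was at 46 thresholded X regions (11.6%, interval 8.63 to 15.2) and 7.53% of autosomal ones (5.69% to 10.3% on single autosomes; odds ratio 1.61, Fisher's exact test, adjusted p = 0.0111). At protein-coding starts it was in 9.20% of thresholded X regions and 2.94% of autosomal ones, and elsewhere in 13.3% and 13.4%. With a sequence window of 100 bp the overall difference was 1.73 percentage points (adjusted p = 0.183, Fisher's exact test). The word was in 1.23% of X tiles and 1.11% of autosomal tiles. GAGAGAGA was at 43 thresholded X regions (10.9%) and 12.6% of autosomal ones, an odds ratio of 0.848 (Fisher's exact test, adjusted p = 0.397), which lay inside the spread of the autosomes (10.6% to 16.7%). It was in 1.11% of X tiles and 1.35% of autosomal tiles.

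Lists of genes with known roles were then read against the share over all X protein-coding genes, 6.59%. A gene was counted by summits within 500 bp of its 5′ end. Regions farther away or deeper inside a gene were not counted. In a list of 7 X genes of sex determination and dosage compensation, 2 had a thresholded region. ceh-39, a homeodomain protein that counts X chromosomes, had a signal of 40.3 (rank 1719, ranks 1436 and 2610 in the replicates), and tra-4, a zinc-finger protein, had a signal of 40.2 (rank 1722, ranks 1597 and 2771). sdc-1, a dosage compensation protein, had a region below the threshold (signal 16.3, rank 5605), and the master switch xol-1, sdc-2 and the X counting gene sex-1 had none. With 7 genes the count of 2 (28.6%) is no result beside the 6.59% over all X protein-coding genes.

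Of 11 genes of developmental timing and the vulva, lin-14, a timing regulator of larval stages, had a thresholded region within 500 bp of its start. It had a signal of 32.8 (rank 2274), with rank 1512 in replicate 1 and 4197 in replicate 2. Stronger thresholded regions lay in introns of lin-14, outside the window. They were X region 123 (signal 60.1, rank 865, no summit within 100 bp in replicate 1) and X region 133 (signal 58.3, rank 917), which was assigned to the noncoding gene T25C12.7. Among the other genes of this list the strongest region within the window was at daf-3 (rank 11527). X region 95 (rank 690) lay 931 bp upstream of the listed gene lin-15B and was not counted. Of 11 muscle-list genes, 2 had one: unc-115, an actin-binding protein known for axon guidance (signal 48.9, rank 1267), and dim-1, an immunoglobulin-domain protein of body muscle (signal 29.1, rank 2663), which was the fourth X region from the end of the thresholded list. Of the muscle-list genes with a region below the threshold, unc-97 was the strongest (rank 11330). With 11 genes the count of 2 (18.2%) is no result beside the 6.59% over all X protein-coding genes. It also depends on placing unc-115 in this list and not in the neuron list.

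Of 23 nuclear hormone receptor genes, ligand-gated transcription factors, nhr-32 (signal 49.5, rank 1244) and nhr-1 (signal 33.7, rank 2179) had a thresholded region within 500 bp. The region at nhr-35 lay just below the threshold (signal 28.6, rank 2734). It ranked 2963 in replicate 1 and had no summit within 100 bp in replicate 2. Stronger regions outside the window were not counted. Examples are X region 58 (signal 88.8, rank 411), at -589 from nhr-48, and X region 146 (rank 968), in an intron of nhr-3. Within 500 bp, no thresholded region was found at the 8 yolk and intestine genes (strongest elt-2, rank 17417) or 19 neuron genes (unc-1, rank 3311). The same held for 29 cuticle collagen genes (col-168, rank 12911), 37 neuropeptide genes (nlp-76, rank 3101) and 6 innexin genes (inx-5, rank 12478). Thresholded regions farther away were not counted. An example is X region 10 (signal 184, rank 132), which lay at -636 from the start of the listed neuropeptide gene ins-39. The only gene of the cytosolic ribosomal protein list, rpl-11.2, had a thresholded region within 500 bp. So did both genes of the tRNA synthetase, proteasome and respiratory chain list, ucr-2.2 and ucr-2.1. The ATP synthase gene asb-2, named above, was not in that list. With 1 and 2 genes these counts are no result beside the 6.59% over all X protein-coding genes. The region at ucr-2.1 (signal 82.2, rank 474) had its summit at -285 from that start and nearer, at -101, to the start of nmat-1, to which it was assigned. The median rank of the strongest region was taken over genes with any region. It was 9741 for all X protein-coding genes (949 of 2730 with a region). For collagens it was 16849 (6 of 29), and for the neuron list 4659 (7 of 19). These medians rest on few genes and were not tested.

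Noncoding genes without a small RNA class held 39 thresholded X regions of 656 (5.95%; 11.6% on the autosomes). After M163.12 the strongest were at F33C8.9 (signal 115.4, rank 248, ranks 504 and 164 in the replicates, summit at -286) and K08B5.8. The 162 piRNA genes of X had 43 regions and 0 in the thresholded list. The strongest piRNA regions were at 21ur-14662 (rank 3195), 21ur-13424 (rank 3593) and 21ur-14279 (rank 4578). On the autosomes 35 of 3171 piRNA regions were thresholded (1.10%). The only thresholded pseudogene region was at asna-2 (signal 47.6, rank 1319).

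The 191 thresholded X regions with no start of any class within 500 bp (48.2%) were a larger share than on any autosome (24.8% to 38.97%); this share was not tested. Of them 37 held CGGCCGAC, 16 GCGCAGGG and 138 neither word. The 138 had a median signal of 43.3 and a highest of 210, at X region 5 (X, 16056518 to 16056730, ranks 109 and 105 in the replicates). Of the 191, 128 were intergenic and 57 intronic. Thresholded X regions were richer in G and C, with a median of 47.5% over the 200 bp at the summit, than those of the autosomes (42.5% to 43.5%) and than X regions below the threshold (34%).

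Most thresholded X regions were found in both replicates. A summit of each replicate list lay within 100 bp for 366 of the 396 (92.4%; 93.2% to 94.5% on the autosomes), and 248 were among the 2672 strongest regions of both lists. Over the 366, ranks in the replicates had a Spearman rho of 0.557 (0.526 to 0.596 on the autosomes), given as a description of regions that were selected on the pooled signal. Over all 5484 X regions, background included, 22.5% had a summit in both lists against 25.2% on the autosomes (23.1% to 27.7%; odds ratio 0.861, Fisher's exact test, adjusted p = 6.32e-05). Read counts are not part of the region lists, and depth is unknown for both replicates.

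**Figure D4:**
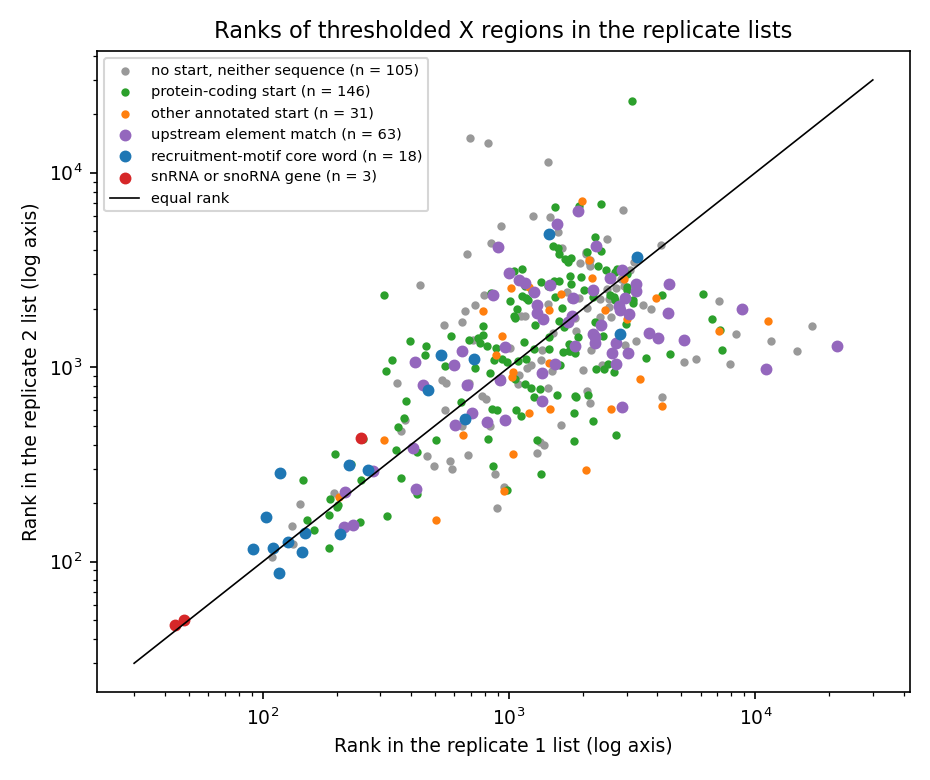
Rank in the replicate 1 list against rank in the replicate 2 list (both log axes) for the 366 thresholded X regions with a summit in both; each point is 1 region, the line marks equal rank. The M163 genes sit near the line at ranks 44 and 47, and 48 and 50, and the spread widens among weaker regions.

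Thresholded X regions were unevenly spread along the chromosome. Of 10 equal bins numbered from the left end, bin 9 (14175154 to 15947047) held 81 of the 396, and the other bins 25 to 50. It also had the most regions of any kind (674) and the highest share thresholded, 12.02%, against 4.69% to 8.38% elsewhere. It held 25 of the 63 element matches and 18 of the 40 regions with CGGCCGAC, and bin 10 held 15 and 8. Bins 6 and 7 held 0 element matches. The 18 regions with GCGCAGGG were spread instead, with 0 to 3 in each bin.

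**Figure D5:**
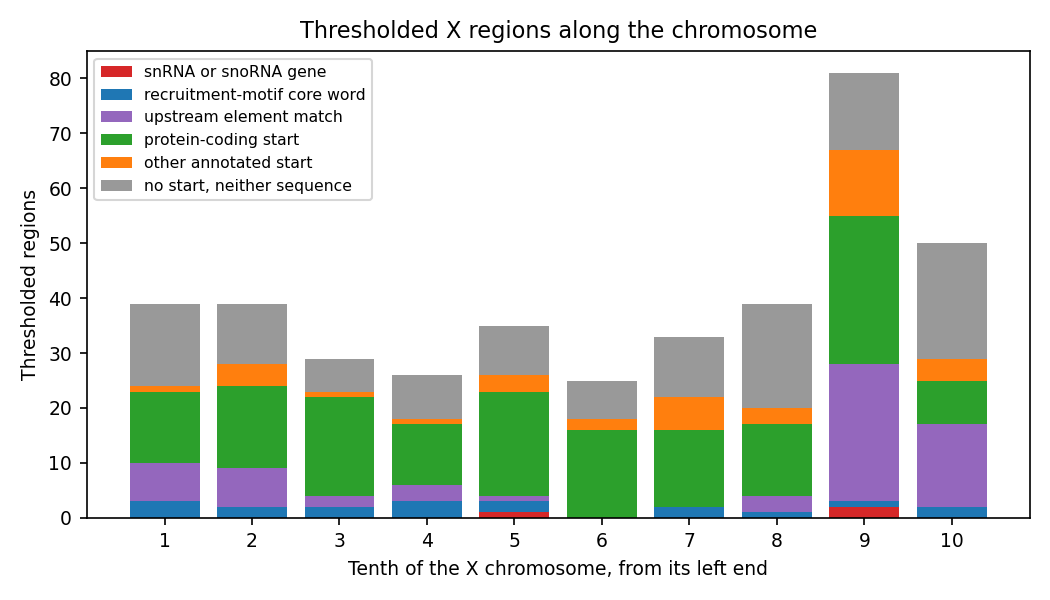
Number of thresholded X regions in each of 10 equal bins of the chromosome, from its left end, stacked by the first kind that applies. Bin 9 holds 81 regions, 25 of them with an upstream element match, while regions with the core word of the recruitment motif number 0 to 3 in every bin.

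At the end of the thresholded list the X regions changed little. The last inside it were X region 395 (signal 29.1, rank 2670), in an intron of ZK470.2, and X region 396 (signal 29.1, rank 2671). The first outside were X region 397 (signal 29.0, rank 2678) and X region 398 (signal 28.9, rank 2686). X region 397 held an element match, and X region 396 ranked 17057 in replicate 1 but 1622 in replicate 2.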

How the data were processed

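ChIP-seq region lists of 1 group with 2 biological replicates were analysed as deposited. Per the file headers, the authors deposited lists of peaks and background for each replicate and for the pooled replicates, 30000 regions each, and a thresholded list of 2672 peaks made with the irreproducible discovery rate method. Aligner, caller and threshold: not given in the sources used here. Each region has a deposited signal in an arbitrary unit, used only within its list, and the pooled list also has a deposited −log10 q-value, which was at its top value of 3.879 for all 396 thresholded X regions and for 207 below the threshold, and so was not used to order them. Per the file headers, the lists exist on ce10 and ce11, and only ce11 was used. Depth is unknown. No region ended beyond a chromosome end of the RefSeq WBcel235 genome.

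Summits were assigned within 500 bp of an annotated 5′ end to the first class of a set order, which put spliced leader genes first, then snRNA genes, the RNase P, MRP and Y RNA genes together, rRNA, snoRNA, protein-coding genes, piRNA, other noncoding RNA and pseudogenes. Words were sought on both strands of the 200 bp at the summit. X and autosomal shares were compared by two-sided Fisher's exact tests (SciPy 1.17.1), with Benjamini-Hochberg adjustment over 11 tests and a threshold of 0.05 (statsmodels 0.14.6), in Python 3.11.15 with pandas 2.3.3. Intervals are exact binomial (Clopper-Pearson, 95%) and cover counting error only. The test and the element fit were tested on simulated data. Alternatives varied the replicate, windows, exclusion, autosomes and list length.

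The named genes are those at the 20 strongest X regions, up to 3 per class, and list genes with a thresholded region (up to 5 a list) or the strongest below it. A few other genes, among them puf-9, uggt-1, mans-3, trap-2, asb-2 and hsp-3, were named outside this rule after their values were seen. The members, words and gene lists were chosen with earlier results of these data known.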

Additional observations from a re-analysis of the deposited data

How the results depend on the processing

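Values are X minus autosome differences in percentage points. The difference in the thresholded share away from protein-coding starts changed sign in 3 settings: -0.584 without replicate 2, -0.745 without chromosome IV among the autosomes, and -0.419 with 250 bp around starts. It was past the threshold in none of them, and the cause was not tested. Using the stronger 50% of the thresholded list, AGACGCAG (-2.66, adjusted p = 0.478 by Fisher's exact test) and the upstream element (0.793, adjusted p = 0.794) lost the call; both differences were smaller there, and the cause was not tested. CACACACA lost it with a sequence window of 100 bp (1.73, adjusted p = 0.183 by Fisher's exact test). With regions holding CGGCCGAC left out, a setting chosen after seeing the data, the upstream element lost it (0.885, adjusted p = 0.626 by Fisher's exact test). Of 77 alternative values in all, 70 kept direction and side of the threshold.

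Leaving out each replicate in turn gave these ranges: the thresholded share -1.94 to -1.17, the share of all regions at a protein-coding start -6.46 to -5.53, that of thresholded regions -17.6 to -11.0, the thresholded share at starts -4.64 to -3.09, that elsewhere -0.584 to 0.678, AGACGCAG -6.87 to -4.07, GAGAGAGA -2.27 to -0.254, CACACACA 3.75 to 4.09, GCGCAGGG 3.94 to 3.96, the upstream element 3.48 to 8.02.

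No paired analysis was possible because there is only 1 group. With 2 replicates, the alternatives without a replicate rest on the list of the other alone. Regions are not samples, so p-values do not measure the spread between animals.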

Other observations

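X regions below the threshold were mostly away from gene starts and weak. The 5088 of them had a median signal of 8.24 (highest 29.0), and 17.02% had a summit in both replicate lists. Of their summits 32.2% lay in introns and 5.86% in coding exons, against 18.2% and 1.26% of thresholded X regions. A median of 29.5% of the 200 bp at their summits was soft-masked, against 15.2%.

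Among the few of them at snoRNA genes, W01H2.11 came nearest to the threshold (signal 28.6, rank 2732, summit at -72); it ranked 3592 in replicate 1 and had no summit within 100 bp in replicate 2. Of the 33 X snoRNA genes 9 lie inside a protein-coding gene, among them T25C12.11 and T25C12.12 in lin-14, and neither of that pair had a region.

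Thresholded X regions lay a median of 47410 bp from the nearest tRNA 5′ end, and the smallest distance was 550 bp, at M163.14.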
